A study of Drosophila melanogaster with 3 samples.

Results

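In embryos carrying GFP-tagged sqz, 1280 of 6578 thresholded ChIP-seq peaks (19.5%) had their summit in an intron on an autosome, near but not at a promoter. They made up 24.6% of the 5194 thresholded peaks on the autosomes 2L, 2R, 3L, 3R and 4. A peak was counted here when its summit lay inside the body of a protein-coding gene, outside all coding and UTR exons, and over 500 and up to 5000 bp from the nearest protein-coding transcription start site (TSS). The choice used positions only and no peak strength. The libraries were made from whole embryos, 0 to 16 h old and of both sexes, of a transgenic line that stably expresses sqz with GFP at its C-terminus, and the chromatin was sonicated to fragments of 200 to 800 bp. In ChIP-seq, chromatin is pulled down with an antibody and its DNA is sequenced; the antibody label names sqz. All 3 libraries, which are biological replicates, belong to this 1 group, so no conditions could be compared. One label names the libraries as an input control, whereas the antibody and assay labels and a separate control alignment in the file headers describe them as ChIP, which is how they were read.

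Squeeze (sqz) is a zinc finger transcription factor of the Krüppel type, known in the embryonic nerve cord for its role in fate choices among Apterous cluster neurons. Introns close to a start site often hold enhancers and alternative promoters in flies, and the first intron is often the longest. A peak there marks a place where DNA was recovered more than in the control, and whole embryos mix many cell types, so a peak does not say in which cells the factor was found. Other autosomal peaks used for comparison lay within 500 bp of a TSS (1938), in introns over 5000 bp from one (842), or between genes at up to 5000 bp from one (539).

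The sequence under the strongest of these intronic summits is shown because no single word was common to all of them. The 30 bases centred on the summit are read from the Release 6 genome (dm6), plus strand, 5′ to 3′, for the 8 strongest such summits on 2L, 3L and 3R. Capitals mark a run of 7 or more A or T, or a CA repeat of 6 bases or more.
CG11050, chr2L:6612701-6612730: taatacaagattagattttgtattgctttt
ush, chr2L:481041-481070: tctctgaaaagtttaagttttatttttctt
Dad, chr3R:17056480-17056509: tgcacgcaagcattctgtatgtatgagtga
Trl, chr3L:14759509-14759538: tttttccattggctagtttttatagtgcgt
nsl1, chr3R:15794483-15794512: atacagTTTTTTTTattgcgcatcatggtg
Cip4, chr3L:4360491-4360520: tataaagtttcgagttccaacttggtcggc
Lk6, chr3R:11761028-11761057: tacagtggcacataaactaaacgtatttca
sqz, chr3R:19165893-19165922: gttgattcgttttttGTGTGTaggtttttt
Runs of T and A recur in several of them, and 1 of the 8 had a run of 7 or more within these 30 bases. With 100 bp on each side of the summit, such runs were at Dad, nsl1, Cip4 and sqz among these 8. The run nearest the summit is shown for these 4, in capitals.
Dad, chr3R:17056457-17056486: gccgccctgccTTTTTTTTactctgcacgc
nsl1, chr3R:15794478-15794507: gttctatacagTTTTTTTTattgcgcatca
Cip4, chr3L:4360473-4360502: aaaaccagTTTTTTTTTTTataaagtttcg
sqz, chr3R:19165982-19166011: ggggttttcttcTTTTTTTTTTTgttgtat
GAGAGA, a word bound by the GAGA factor, was on either strand within 100 bp of the summit at Dad, nsl1, Cip4 and Lk6, and is shown there in capitals.
Dad, chr3R:17056500-17056529: gtatgagtgagcGAGAGAgcgcgagtgtgt
nsl1, chr3R:15794523-15794552: cgctttctgaccTCTCTCTCgctctcatgg
Cip4, chr3L:4360538-4360567: aatgcagcggctGAGAGAGAcggacgcttt
Lk6, chr3R:11761112-11761141: tctttcagtgcaGAGAGAgccctgtttcat

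The 1280 summits lay 504 to 4997 bp from the nearest TSS, with a median of 1744 bp. Their introns had a median length of 5280.5 bp, and the peak intervals were 114 to 1131 bp wide with a median of 456 bp. Just inside the lower limit were summits in RhoGDI (504 bp, signal 634, met in 3 libraries) and bun (506 bp, signal 232, met in 2). Just outside it lay lbk (500 bp, signal 178) and sky (499 bp, signal 166), each met in 1 library. At the upper limit, tna (4997 bp, signal 873, met in 3 libraries) and Wnt4 (4983 bp, signal 190, met in 1) were inside, while rdx (5001 bp, signal 211, met in 1) and cno (5002 bp, signal 301, met in 3) were outside. A further 605 intronic summits within 500 bp of a TSS were counted with the promoters. The signal value is the authors' strength of a peak on a scale that is not stated, so it ranks peaks within 1 list only. A summit was called met in a library when one of that library's 6578 strongest peaks had its summit within 100 bp.

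Introns near start sites held summits more densely than introns farther away, and more densely than intergenic sequence at the same distances. Counted per Mb of sequence that the rule could accept, the class had 71.4 summits per Mb in the thresholded list. Among the 6578 strongest peaks of replicates 1, 2 and 3 it had 67.5, 71.8 and 70.8 per Mb, a mean of 70.1 ± 2.24 (SD, n = 3). Introns over 5000 bp from a TSS had 27.0, 34.8 and 33.2 per Mb in the same libraries (31.7 ± 4.12). The groups did not overlap, and the density near the TSS was 2.502, 2.06 and 2.13 times that of far introns. By an exact two-sided sign-flip permutation test over the 3 libraries, p was 0.25, the smallest that 3 libraries can give. Intergenic sequence at up to 5000 bp, which includes no promoter window, had 44.2 ± 0.941 per Mb, and the ratio to it was 1.56, 1.60 and 1.59 in replicates 1, 2 and 3 (exact permutation p = 0.25). Promoter windows were denser than these introns, with 182, 148 and 150 per Mb in replicates 1, 2 and 3. The intronic class had 0.370, 0.484 and 0.471 times that density (exact permutation p = 0.25). Replicate 1 stood apart here, with 2323 summits in promoter windows against 1890 and 1915 in the other libraries.

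Most of the fall with distance took place within the nearest 2000 bp. Introns over 500 and up to 1000 bp from a TSS held 99.9 ± 4.13 summits per Mb (SD, n = 3 libraries). From 1000 to 1500 bp they held 84.5 ± 0.760 and from 1500 to 2000 bp 61.8 ± 2.75 per Mb. From there to 5000 bp the 6 bins of 500 bp lay between 51.7 and 63.7 per Mb, with SDs of 3.20 to 9.20, so their order was within the spread between libraries. No break stood at the upper limit, since introns from 4500 to 5000 bp held 53.5 ± 5.22 per Mb and those from 5000 to 7500 bp 50.02 ± 8.62. Intergenic density fell less evenly. It was 51.7 ± 2.69 per Mb from 500 to 1000 bp, 50.9 ± 2.78 from 1000 to 1500 bp and 41.4 ± 1.77 from 1500 to 2000 bp. From 2000 to 2500 bp it was 52.9 ± 2.99, and from 4500 to 5000 bp 34.1 ± 3.996.

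**Figure D1:**
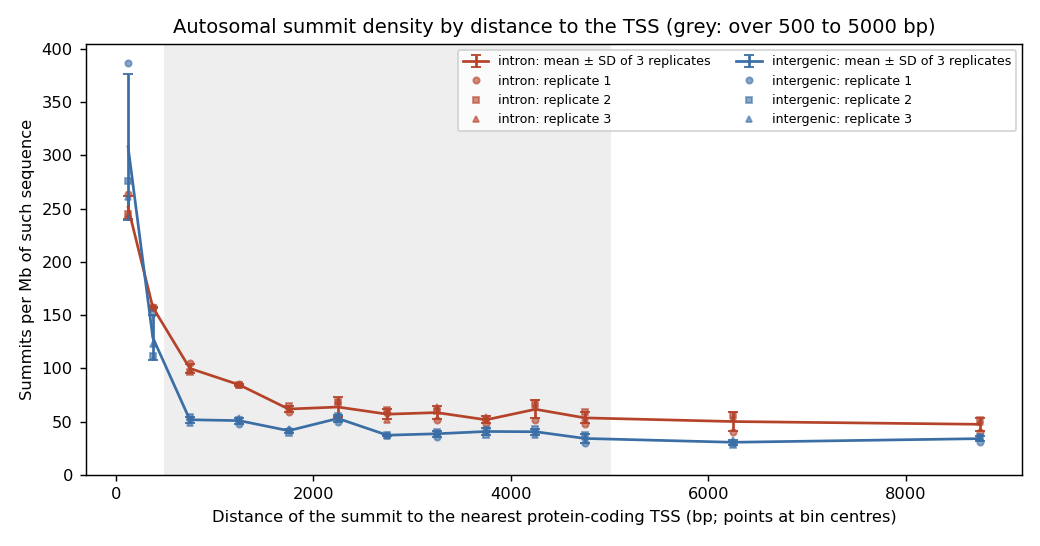
Summits per Mb of eligible autosomal sequence (vertical axis) against distance to the nearest protein-coding TSS in bp (horizontal axis), for introns and for intergenic sequence; symbols are the 3 replicates, lines and bars the mean ± SD. Introns from 500 to 1000 bp averaged 99.9 per Mb and those from 4500 to 5000 bp 53.5, and the intron mean is above the intergenic mean in every bin beyond 250 bp.

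The chromosome arms did not hold these summits equally. Per Mb of eligible intron, 2R had 81.0 in the thresholded list, 3R 73.0, 3L 71.8 and 2L 63.6. Chromosome 4, which is small and largely heterochromatic, had 1 such summit among its 27 thresholded peaks, or 3.56 per Mb of eligible intron. These densities have no replicate error here and were not tested.

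The summits lay mostly in first introns and near a start site of the gene that holds them. In all, 994 of 1280 (77.7%, 75.3 to 79.9) were in the first intron of a transcript, against 58.5% of the eligible sequence and 52.6% of the summits in introns farther from a TSS. In replicates 1, 2 and 3 the share was 80.1%, 77.0% and 77.2%. It was above the share of eligible sequence in every distance band, with 87.4% of summits against 70.8% of sequence at over 500 and up to 1000 bp, and 62.4% against 47.7% at over 4000 bp. The nearest TSS belonged to a gene holding the summit for 1118 of 1280 (87.3%, 85.4 to 89.1), against 75.5% of eligible sequence. The side of the TSS differed little from what the sequence offers, since 66.2% (63.5 to 68.7) lay downstream of the nearest TSS, against 68.6% of eligible sequence. An intronic summit can lie upstream of its nearest TSS because that TSS is an alternative start of the same gene or belongs to a neighbour or nested gene. Intervals are 95% Wilson intervals, which cover counting error only, and several summits of 1 gene are not independent.

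As a class these summits were of middling strength. Their signal in the thresholded list ran from 165 to 2650 with a median of 250. Their median rank was 3553.5 of 6578, against 2750.5 for promoter summits, 3846 for far introns and 3453 for intergenic summits at up to 5000 bp. For summits found in each library's list the median rank was 3844, 3249 and 3459 in replicates 1, 2 and 3, against 3524, 3300.5 and 3307 for all other autosomal thresholded summits. The difference, 140 ± 186 ranks (SD, n = 3), was within the spread between libraries (exact permutation p = 0.5). Under other settings it ran from 48.8 to 362.5 ranks, the highest with an upper limit of 10000 bp. It kept 1 sign in all 3 libraries (exact permutation p = 0.25) there, with a lower limit of 1000 bp (249.8), with the TSSs and exons of all annotated genes (234), with neighbouring summits merged (181.8) and among summits met in all 3 libraries (149.8). They ranked weaker than promoter summits in all 3 libraries, by 724.5 ± 331 ranks, and stronger than far intronic summits, with a difference of -639 ± 374 ranks (exact permutation p = 0.25 each).

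The share of this class changed little along peak strength. It held 16 of the 86 autosomal peaks among the strongest 100 (18.6%) and 22.2% of those ranked 101 to 250. From rank 1001 to 6578 it held 23.8% to 26.9%. Below the thresholded list, in the weaker peaks of the 3 libraries together, it held 4628 of 18025 autosomal summits (25.7%). Promoter summits, by contrast, made up 52.3% of the autosomal peaks at ranks 1 to 100 and 11.5% at ranks 20001 to 30000.

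**Figure D2:**
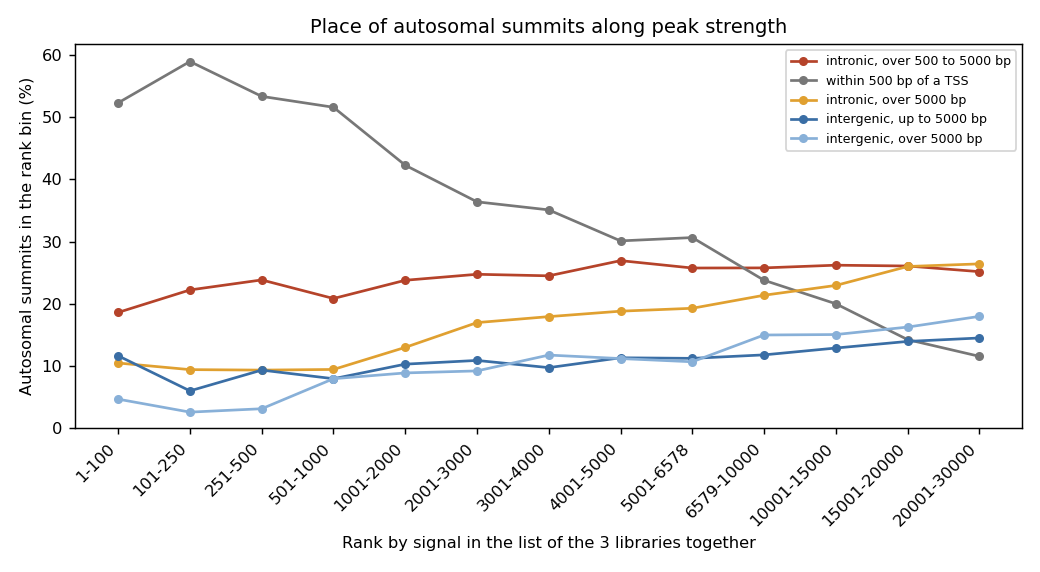
Share of autosomal summits (%) in each place (vertical axis) by bin of signal rank in the list of the 3 libraries together (horizontal axis, strongest at the left). The intronic class near promoters stays between 18.6% and 26.9%, while the promoter share is 52.3% in the strongest bin and 11.5% in the weakest.

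The libraries met these summits about as often as other autosomal ones. A summit was met for 68.1%, 81.7% and 78.0% of them in replicates 1, 2 and 3, against 68.0%, 79.7% and 78.8% of other autosomal thresholded summits. The difference was 0.422 percentage points ± 1.45 (SD, n = 3, exact permutation p = 0.75), within the spread between libraries. Of the 1280, 1040 were met in at least 2 libraries, 616 (48.1%) in all 3 and 20 in none. Replicate 1 met far intronic summits least, at 57.5% against 78.6% and 78.9% in replicates 2 and 3, and the class near promoters was higher by 4.28 points ± 5.86 on average (exact permutation p = 0.5). Support followed strength: all 3 libraries met 92.6% of those in the strongest quartile of the thresholded list, and 71.3%, 33.2% and 4.11% of those in the following quartiles. The weakest thresholded peaks lie at the cutoff used in each library, and the same libraries gave the thresholded list, so these shares are no independent check of it.

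The strongest of these summits was in CG11050, at position 6612716 of 2L, 1029 bp downstream of its TSS. The intron there, not a first intron, was 140 bp long, shorter than the peak interval of 494 bp. This summit had a signal of 2650, rank 2 in the thresholded list, and ranks 2, 12 and 2 in replicates 1, 2 and 3. The second lay in the first intron of ush, a zinc finger cofactor of GATA factors, but 1368 bp from the TSS of its neighbour cbt, which encodes a zinc finger transcription factor. It ranked 5, 18 and 7 in replicates 1, 2 and 3, with a signal of 2387 in the thresholded list. Both stood in the first 20 ranks of every library.

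The next summits were in genes of varied roles. Dad, the inhibitory Smad of BMP signalling, had one in its first intron, 1598 bp downstream of its TSS. Its signal was 2113, with ranks 18, 5 and 21 in replicates 1, 2 and 3. Trl, which encodes the GAGA factor, had one 1525 bp from its TSS (signal 1983, ranks 8, 31 and 28). The summit in nsl1, which encodes a subunit of the NSL chromatin complex, had a signal of 1920 and ranks 29, 14 and 22. All 3 genes were thus among the strongest 31 peaks of each library. The summit in KCNQ, a potassium channel gene, was nearer to the TSS of another gene, mlt (1080 bp), and that in Cdk4, a cell cycle kinase gene, was nearest to RpLP2 (2069 bp). Their signals were 1894 and 1855. Cip4, which encodes an F-BAR protein of the endocytic machinery, followed with 1792 (rank 66, 21 and 19 in replicates 1, 2 and 3), and Lk6, a kinase gene of the translation machinery, with 1748 (19, 42 and 35).

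The rest of the 20 strongest lay in sqz (signal 1680), CG9663 (1463), HmgZ (1421), Diap1 (1389), CG31635 (1344), chif (1336), CG10383 (1205), psq (1181), Mapmodulin (1174), Reph (1118) and CG9171 (1114). Diap1 is the main inhibitor of apoptosis in flies, HmgZ encodes an HMG-box chromatin protein and chif a regulator of replication. All 20 were met in all 3 libraries. Replicate 1 differed most from the other libraries, ranking the summits in sqz, CG10383, psq, Mapmodulin and CG9171 at 284, 291, 229, 325 and 361, where replicates 2 and 3 had them at rank 14 to 117.

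**Figure D3:**
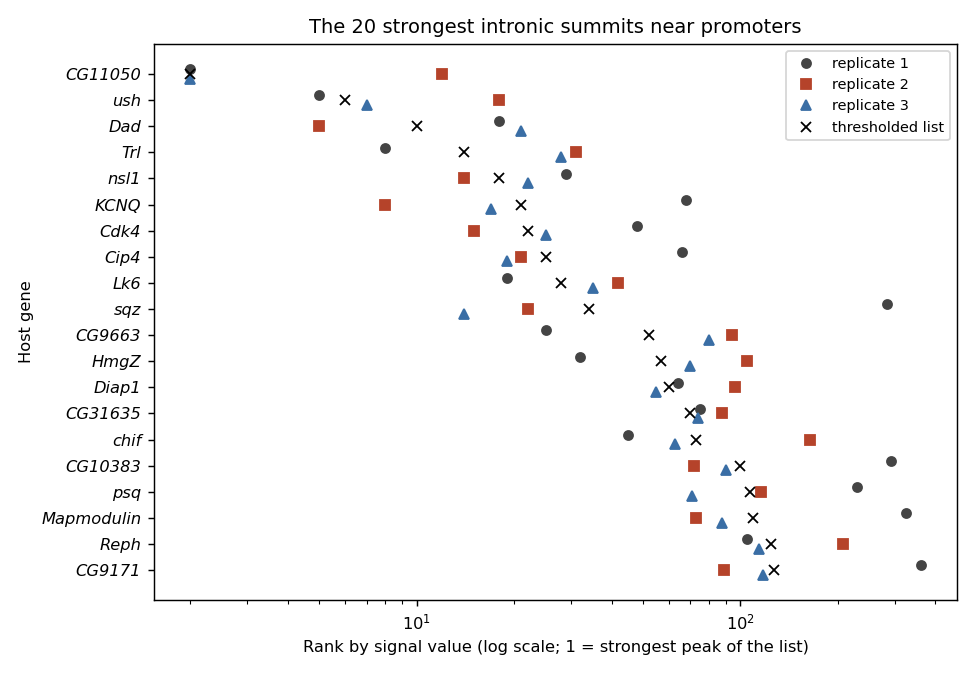
Rank by signal (horizontal axis, log scale, strongest at the left) of the 20 strongest autosomal intronic summits near promoters in each replicate (filled symbols) and in the thresholded list (crosses), by host gene (vertical axis). CG11050 ranks 2, 12 and 2 in replicates 1, 2 and 3, and replicate 1 places sqz at 284 where replicates 2 and 3 have it at 22 and 14.

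The sqz gene itself (FBgn0010768, 3R) held 4 of the summits, all in its first intron, at 1697, 1916, 2124 and 3218 bp downstream of its TSS. Their signals in the thresholded list were 1680, 983, 208 and 194. The first ranked 284, 22 and 14 in replicates 1, 2 and 3, and the second 451, 186 and 112. The third was met in 2 libraries and the fourth in 1. The first 3 share the interval chr3R:19165489-19166619 and may be 1 region. The tagged transgene holds sqz sequence, and the lists do not tell it apart from the native gene.

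The 1280 summits were in 716 genes, of 5066 autosomal protein-coding genes with at least 200 bp of eligible intron (14.1%). A single summit was found in 435 genes, 2 in 150, 3 or 4 in 98, and 5 or more in 33. In 72 cases the summit lay in more than 1 gene, and the one with the nearest TSS was taken as host. Hosting followed the eligible length: 1.54% of genes with 200 to 1000 bp of eligible intron had a summit, then 10.6%, 25.3% and 44.5% of genes with 1000 to 3000, 3000 to 10000 and 10000 to 30000 bp, and 22 of 30 genes with more. Per length the genes were alike above 1000 bp, with 0.687 to 0.733 summits per 10 kb, against 0.360 below. Host genes also had several start sites more often, at 64.5% against 40.2% of all genes with eligible intron. These shares were not matched for eligible length, so they cannot be told apart from the effect of length. In clusters, 238 of the 1280 summits (18.6%) lay under 500 bp from another thresholded summit, and merging neighbouring thresholded summits to the strongest left 1160.

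The 5 genes with most summits had 20323 to 47791 bp of eligible intron. The zinc finger gene shn, a nuclear factor of BMP signalling, had 15 (10 met in all 3 libraries), or 4.34 per 10 kb of eligible intron. Eip75B, an ecdysone-induced nuclear receptor gene, had 14 (8 met in all 3, 2.93 per 10 kb). The chromatin factor gene tou had 10 (4.92 per 10 kb), and psq, a BTB domain factor gene, and bun, a gene of the TSC22 family, had 9 each (3.94 and 2.35 per 10 kb). All 5 lay above the 0.689 summits per 10 kb over all genes. They were picked for their number of summits, which favours a high density, so this is no separate result. The strongest summit in each had a signal of 760 in shn, 596 in Eip75B, 371 in tou, 1181 in psq and 664 in bun, so the genes with most summits, other than psq, did not hold the strongest ones.

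Genes of several signalling pathways held more summits per length of eligible intron than genes at large. The lists were chosen with earlier results of these data known, so their densities are a description and were not tested. Over all 5066 genes the density was 0.651, 0.693 and 0.683 per 10 kb in replicates 1, 2 and 3. A share of hosts is read against 14.1% of all genes, and against 25.3% of genes with 3000 to 10000 bp of eligible intron. The median of the BMP, EGF receptor, Notch, Wingless, Hedgehog and Hippo lists was 3394 to 6700 bp. For the BMP genes the density was 2.33, 2.67 and 2.11, with 5 of 11 genes hosting a summit in the thresholded list (45.5%, 21.3 to 72.0). Of the 24 summits in this list, 15 were in shn. Dad was given above. Mad, the signal-transducing Smad gene, had a summit of signal 709 (ranks 282, 556 and 641 in replicates 1, 2 and 3), and that of shn ranked 608, 373 and 348.

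In the EGF receptor pathway, 9 of 14 genes hosted a summit (64.3%, 38.8 to 83.7), and the density was 2.22, 2.45 and 2.22 per 10 kb in replicates 1, 2 and 3. The members included aos, which encodes a secreted inhibitor (signal 760), the ligand gene spi (743) and the adaptor gene drk (478), whose summit was nearer to the TSS of mars. The Notch list had 6 of 12 (50%) and 1.41, 1.99 and 1.76 per 10 kb, and 8 of its 16 summits were in mam. It was led by the ubiquitin ligase gene neur (786), the coactivator gene mam (509) and the ligand gene Delta (498). The mam summit, the strongest of its 8, was nearer to the TSS of CG18371. The Wingless list had 6 of 13 and 1.52, 1.63 and 1.63 per 10 kb, with the secreted Wingless inhibitor Notum (820), the receptor fz (681) and the feedback inhibitor nkd (515). In the Hedgehog list 3 of 5 genes hosted one, the receptor gene ptc (448), the ligand gene hh (293, nearer to the TSS of CG31457) and the homeodomain gene inv (264), at 1.46, 2.44 and 2.44 per 10 kb. In each of these 5 lists the density was above that of all genes in every library. Hippo pathway genes were not, with 2 of 11, Tgi (286) and ds (261), and 0.718, 0.718 and 0.359 per 10 kb.

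For the BTB domain, nuclear receptor, Apterous cluster and homeodomain lists the median eligible intron was 4027.5 to 7198 bp. Of all genes with 3000 to 10000 bp of eligible intron, 25.3% hosted a summit. Among transcription factor lists, BTB domain genes stood highest with 2.19, 2.19 and 2.34 per 10 kb in replicates 1, 2 and 3. In this list, 8 of 13 genes hosted a summit (61.5%, 35.5 to 82.3). Of the 27 summits in this list, 9 were in psq and 5 in Trl. After Trl and psq the strongest was in chinmo (signal 970), a timing factor of neurons, with ranks 690, 174 and 142. Nuclear receptor and ecdysone genes had 7 of 18, and 1.03, 1.23 and 1.13 per 10 kb. Of their 27 summits, 14 were in Eip75B. The strongest was in Eip75B, followed by those in ftz-f1 (351) and the ecdysone receptor EcR (330). The Apterous cluster list had 6 of 13 (46.2%, 23.2 to 70.9) and 1.32, 1.63 and 1.73 per 10 kb. It included sqz itself, grh (691) and zfh1 (442), and 4 of its 17 summits were in sqz. The temporal factor list had 5 of 9 (55.6%, 26.7 to 81.1) and 1.16, 1.41 and 1.08 per 10 kb. Its median eligible intron was 18182 bp, and 44.5% of all genes with 10000 to 30000 bp hosted a summit. The list included chinmo, grh (ranks 386, 440 and 571 in replicates 1, 2 and 3) and the POU factor gene pdm2 (657). Homeodomain and T-box genes were close to all genes, with 9 of 32 (28.1%) and 0.703, 0.904 and 0.754 per 10 kb, led by hth (748), pdm2 and nub (380, nearer to the TSS of Ref2). Their median eligible intron was 4027.5 bp, against 1412.5 bp over all genes. Polycomb and trithorax genes had 4 of 21 and 1.35, 1.18 and 1.35 per 10 kb, with the chromatin remodeller kis (893), trx (871) and Psc (283). Their median eligible intron was 1449 bp, and 10.6% of all genes with 1000 to 3000 bp hosted a summit.

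RNA-binding protein genes hosted a summit in 15 of 22 cases (68.2%, 47.3 to 83.6) in the thresholded list, and in 14, 13 and 13 in replicates 1, 2 and 3. Their eligible intron was long, with a median of 16929.5 bp, and 44.5% of all genes with 10000 to 30000 bp hosted a summit. The density of the list was 0.865, 1.09 and 0.941 per 10 kb. The strongest was in brat, a translational repressor of neural stem cells, with a signal of 1052 and ranks 165, 169 and 164 in replicates 1, 2 and 3, followed by Rbfox1 (759) and shep (726). The glial, epithelial and muscle lists had a median eligible intron of 4049, 4445 and 4444 bp. Of all genes with 3000 to 10000 bp, 25.3% hosted a summit. Glial genes had 3 of 7 and 1.77, 1.26 and 2.27 per 10 kb, with nrv2 (410), pnt (279) and loco (199). Genes of epithelial polarity and trachea had 4 of 11 and 1.06, 1.36 and 0.910 per 10 kb, with rib (731), par-1 (349) and trh (335). Muscle genes had 4 of 14, with Mef2, the main myogenic factor (594), Tm1 (244) and nau (238, nearer to the TSS of CG10300), and 0.785, 0.687 and 0.785 per 10 kb. The muscle list was near the density of all genes.

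Axon guidance, ion channel and recognition protein genes held fewer of these summits per length than all genes in each library, axon guidance genes by little in replicate 3. The median eligible intron of the axon guidance, ion channel and recognition protein lists was 4461.5, 5300 and 4500 bp. Of all genes with 3000 to 10000 bp, 25.3% hosted a summit, against 14.1% of all genes. Axon guidance genes had 6 of 22 (27.3%), close to the share at that length, and 0.346, 0.544 and 0.643 per 10 kb. They included the receptor gene fra (455, nearer to the TSS of CG33752), the ligand gene sli (281) and robo2 (278). Ion channel genes had 2 of 15, KCNQ and nAChRalpha6 (172), and 0.290, 0.193 and 0.193 per 10 kb. Of the 27 Dpr and DIP genes, which encode cell-surface recognition proteins of neurons, 1 had a summit, DIP-kappa (168, nearer to the TSS of Gpo3), and the density was 0.0457, 0.0457 and 0 per 10 kb. No ribosomal protein gene of 27 (a count of 0 allows up to 11.1%), no proteasome gene of 5 (up to 60%) and no chemoreceptor gene of 46 (up to 6.52%) had one, and their median eligible intron was 401, 288 and 410.5 bp. At such lengths few genes of any kind hosted a summit. The lists were not tested, since the members are few, some lists share genes and all were chosen with earlier results of these data known.

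**Figure D4:**
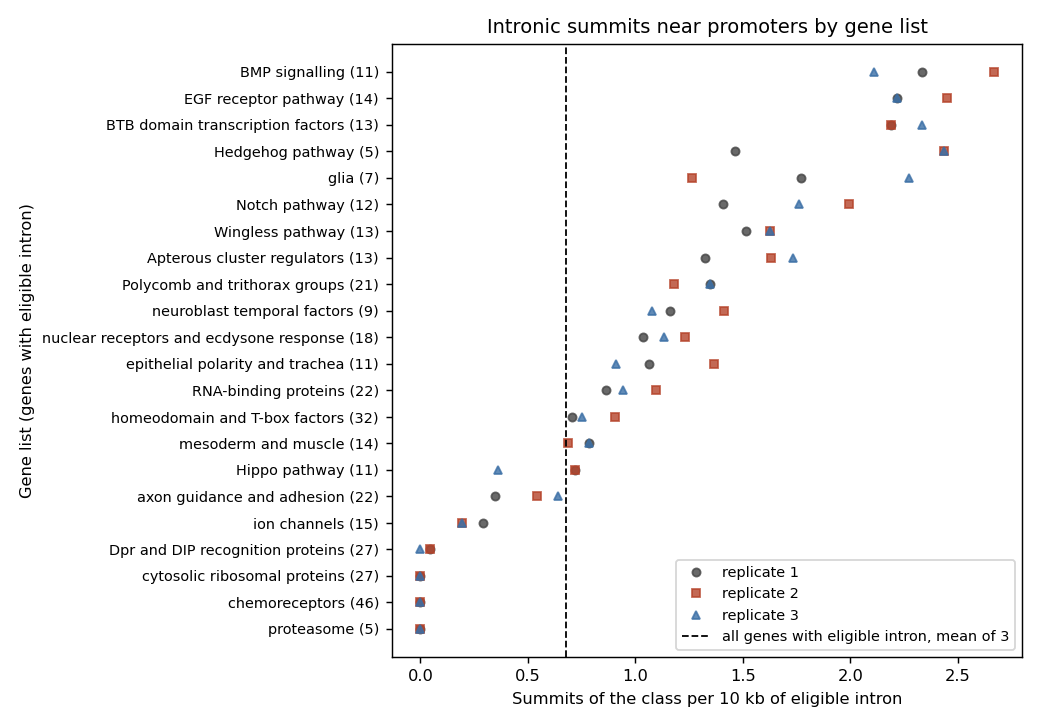
Intronic summits near promoters per 10 kb of eligible intron (horizontal axis) for each gene list (vertical axis, number of genes with eligible intron in parentheses), with 1 symbol for each replicate; the dashed line is the mean of 3 replicates over all 5066 genes. The BMP list lies at 2.11 to 2.67 and the Dpr and DIP list at 0 to 0.0457.

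The nearest TSS of these summits often had a peak of its own. For 546 of 1280 (42.7%, 40.0 to 45.4) a thresholded summit lay within 500 bp of that TSS, with 42.4%, 43.8% and 43.3% in replicates 1, 2 and 3. Among all 10960 TSSs that have eligible intron nearest to them the share was 15.7% (19.8%, 15.5% and 15.6% in the libraries). Counting each start site once, 345 of 903 (38.2%, 35.1 to 41.4) had a promoter peak. The share was not particular to introns near the TSS, since the nearest TSS of far intronic summits had one in 42.5% (39.2 to 45.9), while intergenic summits at up to 5000 bp had 27.6% (24.0 to 31.6). Summits with a promoter peak had a median rank of 3341.5 and 51.6% were met in all 3 libraries, against 3672 and 45.5% without. Of the summits in a first intron and downstream of the nearest TSS, 46.9% had a promoter peak, against 29.96% of those in a first intron and upstream.

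Runs of A were the sequence feature that set these summits off most from their surroundings. Within 100 bp of the summit, 56.9% (54.1 to 59.6) had AAAAAAA on either strand. Of 1254 summits with a free window 1 kb away, 20.2% had it in that paired window, and 18.5% of all 89667 eligible intron windows of 201 bp had it. In replicates 1, 2 and 3 the share was 47.0%, 59.6% and 56.4% at the summits and 18.8%, 18.3% and 18.005% in paired windows. The difference was 35.9 percentage points ± 6.89 (SD, n = 3, exact permutation p = 0.25), so the groups did not overlap. Runs of A are known to be stiff and disfavoured by nucleosomes. Base composition as a whole differed little, with a median GC content of 39.3% at the summits and 40.3% in eligible windows.

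Longer runs showed the larger ratio. A run of at least 10 was at 25% of the summits, against 6.78% of paired and 5.57% of eligible windows, and a run of at least 5 at 88.4%, against 69.8% and 69.1%. The runs lay close to the summit: 22.1% of the 50 bp stretches next to the summit held AAAAAAA, then 13.2%, 9.18% and 7.19% of the following stretches and 5.43% at 450 to 500 bp. For the 954 summits with a run within 250 bp the nearest one was a median of 45.5 bp away.

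The runs went with strength and with place. Of the intronic summits near promoters ranked 1 to 1000 in the list of the 3 libraries together, 67.4% had AAAAAAA, then 58.2% at ranks 1001 to 3000, 53.7% to the end of the thresholded list and 32.6% at ranks 20001 to 30000. That last share is still above the 18.5% of eligible windows. Far intronic summits had it more often, at 64.3%, and promoter summits less often, at 45.6%. In the libraries, intronic summits near promoters were below far ones by -6.03 points ± 1.56 and above promoter summits by 9.81 points ± 1.11 (SD, n = 3, exact permutation p = 0.25 each).

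Of the 10 words sought, 6 were more frequent at the summits than in paired windows, and 4 of them in every library. GAGAGA, the word of the GAGA factor, was at 15.2% (13.3 to 17.2) of summits, against 8.85% of paired windows and 7.41% of eligible windows. The word was not particular to this class, since 15.4% of all other autosomal thresholded summits had it. By place, it was at 17.2% of promoter summits, 14.1% of far intronic ones and 12.1% of intergenic ones at up to 5000 bp. In replicates 1, 2 and 3 it was at 15.8%, 15.2% and 16.6% of summits, against 9.81%, 9.29% and 7.95% of paired windows (difference 6.87 points ± 1.57, exact permutation p = 0.25). ACACAC, a repeat of dinucleotides, was at 22.5% of summits, against 15.3% of paired and 13.6% of eligible windows. Other autosomal summits had it at 20.1%. AGATAA, known from GATA factors, was at 14.7%, against 12.2% of paired windows, 12.99% of eligible windows and 11.4% of other autosomal summits. Its excess over paired windows, 2.63 points, varied with the settings. It ran from 1.03 points in windows about 100 bp wide to 5.34 among summits met in all 3 libraries. With an upper limit of 10000 bp it was 1.19 points. Among summits met in both other libraries it was 4.63, 4.97 and 4.23 points without replicate 1, 2 and 3. Unlike the A runs, GAGAGA and ACACAC had no maximum at the summit, with 3.87% and 6.64% of the stretches next to it and 5.35% and 6.91% of the following ones. GAGAGA was at 22.7% of the summits ranked 1 to 1000 and 13.4% of those ranked 3001 to 6578.

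The remaining 6 words showed no excess over paired windows that held in all 3 libraries. TATCGATA, the DREF word, was at 1 summit (0.0781%) and GGTCACAC, known as promoter motif 1, at 4 (0.313%), against 4.70% and 4.90% of promoter summits. CAGGTA, the Zelda word, was at 4.38%, against 4.55% of paired windows, and CAGCTG, a proneural E-box, at 8.52%, against 7.81% (exact permutation p = 0.5 and 1). CACGTG, the symmetric E-box, was at 2.73% of summits, against 1.52% of paired and 2.37% of eligible windows, with a difference of 0.775 points ± 0.896 in the libraries (exact permutation p = 0.5). TAATTA, a homeodomain word, was lower at the summits in all 3 libraries, at 11.8%, against 14.1% of paired windows and 15.3% of eligible ones. A match is a run of letters and not a shown binding site.

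**Figure D5:**
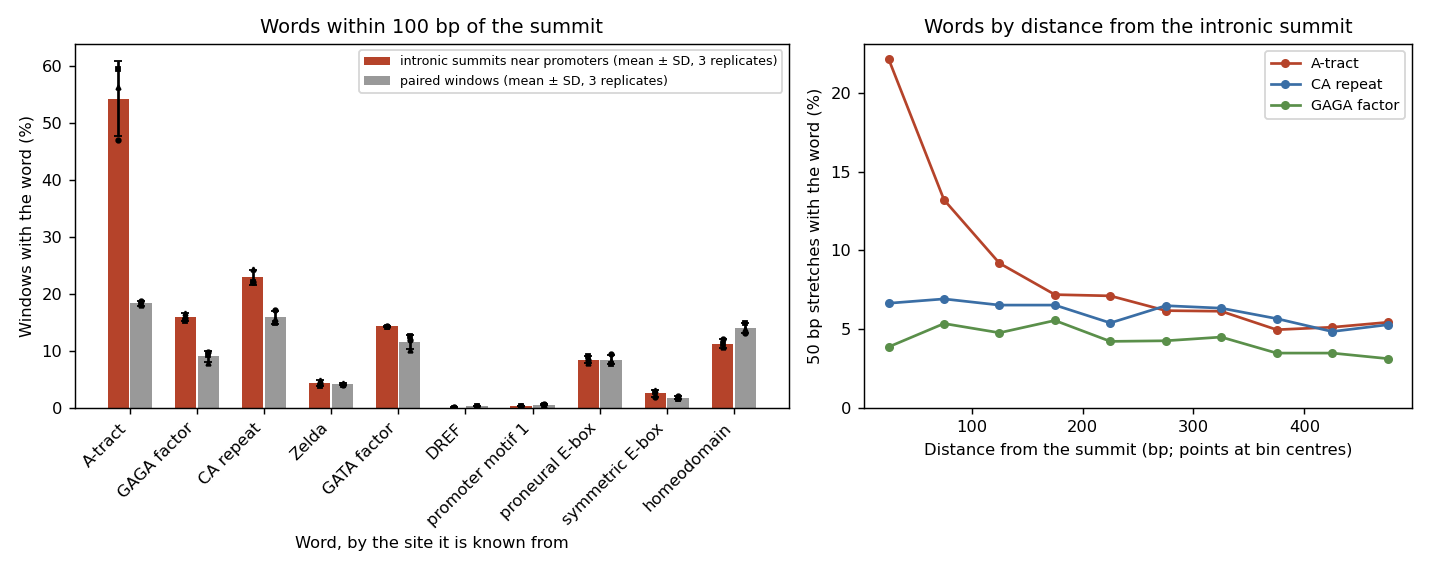
Left, share of windows (%, vertical axis) with each of 10 words (horizontal axis) within 100 bp of the summit and in paired windows 1 kb away; bars and error bars are the mean ± SD of 3 replicates and symbols the replicates. Right, share of 50 bp stretches (%) with 3 of the words by distance from the summit in bp; the A-tract share is 22.1% next to the summit and 5.43% at 450 to 500 bp.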

How the data were processed

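ChIP-seq peak lists of 3 replicate libraries of sqz-GFP embryos were used. Peak calling was done by the authors on dm6, per the file headers, for each library and for the 3 together (30000 peaks in each list), against a shared control alignment. From these lists they derived one thresholded by the irreproducible discovery rate, a measure of rank agreement between replicates. Aligner, caller, versions and threshold: not given in the sources used here. Each peak's deposited signal value is a score given by the authors' caller. All 6578 thresholded peaks were the strongest of the pooled list.

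Positions from 1 are used throughout. Gene models were those of Ensembl release 115 (BDGP 6.54) and sequence from Release 6 (dm6). Each base of the autosomes was classed by the same rule as the summits, which gave the eligible sequence. Per-library values used each library's 6578 strongest peaks. Words were sought on both strands in 201 bp centred on the summit, in paired windows 1 kb to the right (to the left where the right touched another thresholded peak), and in eligible intron windows every 200 bp. Overlapping matches count once for a window. Tests were exact two-sided sign-flip permutations over 3 libraries, whose smallest p is 0.25, so none can pass 0.05. They measure the spread between these libraries only. Intervals are 95% Wilson intervals. A count of 0 was given an upper limit of 3 counts over the number examined. The lists give no read counts, so depth is unknown.

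The genes named are hosts of the 20 strongest summits, the 5 genes with most, up to 3 genes of each list with the strongest summit, those nearest each distance limit, and sqz. The peaks studied, gene lists and words were chosen with earlier results of these data known. Python 3.11.15, numpy 2.4.6, pandas 2.3.3, scipy 1.17.1 and matplotlib 3.10.9 were used, and the steps were tested on simulated data. Alternatives covered the peak set, distance limits, annotation, merging of neighbours, support distance and word windows.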

Additional observations from a re-analysis of the deposited data

How the results depend on the processing

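Of 201 values recomputed under the alternatives, 149 kept their direction or stayed within 1 SD of the libraries (1.5 times, for counts). The density ratio to far introns kept its direction under every alternative run, from 1.92 to 2.60, as did the excess of AAAAAAA over paired windows, from 29.97 to 43.5 points. The number of summits was 596 in the stronger 3289 peaks of the list, 616 among those met in all 3 libraries and 702 to 842 among those met in both other libraries when each replicate was left aside; the genes hosting one were 412 in the stronger set and 434 among those met in all 3. The share with a promoter peak was 27.3% in the stronger set, where promoter peaks were also taken from that set, 39.4% with neighbours merged, 44.9% with a lower limit of 1000 bp, 40.8% with all annotated genes, 45.8% when met in all 3, 31.6% with 250 bp around the TSS and 44.1% to 44.9% without a replicate. The first-intron share was 74.3% with a lower limit of 1000 bp, 82.3% and 73.1% with upper limits of 3000 and 10000 bp, and 75.9% with all annotated genes. AAAAAAA was at 39.5% and 65.1% of summits in windows about 100 and 300 bp wide in all, against 201 bp in the main setting. It was at 57.4% to 63.2% of summits when each replicate was left aside, the highest without replicate 1. The difference in replicate support, 0.422 points, turned to -0.224 with a lower limit of 1000 bp and -0.293 with an upper limit of 10000 bp. With 500 bp to call a summit met it was -0.162. It lay between -0.356 (without replicate 2) and 1.07 (without replicate 3) when each replicate was left aside. The highest values were 1.98 in the stronger set and 1.38 with 50 bp to call a summit met. The cause was not tested. For summits met in all 3 libraries support has no value. No paired analysis was possible because there is 1 group, so replicate numbers pair no samples between groups; the tests compare classes of summits within each library. With no read counts, a summit absent from a library's list cannot be told apart from one below its reach.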

Other observations

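A small number of the intronic summits lay near start sites of non-coding genes, which the rule did not use. Of the 1280, 45 (3.52%) were within 500 bp of the TSS of an annotated non-coding gene. The nearest such gene was an ncRNA gene for 34 of these summits, a tRNA gene for 7 and a snoRNA gene for 4. The share of eligible intron that lies so near a non-coding TSS was not measured, so the count has no background. The strongest was in Mapmodulin, 67 bp from the TSS of lncRNA:CR44417, with a signal of 1174 and met in all 3 libraries, and a second summit in the same gene was 267 bp from that TSS (signal 588). Others were in Pdi, which encodes a protein disulfide isomerase, 231 bp from asRNA:CR45396 (signal 809), and in LpR2, a lipophorin receptor gene, 140 bp from lncRNA:CR46102 (569). A summit in Sarm lay 62 bp from the tRNA gene tRNA:Leu-CAG-1-6 (459). All 5 summits were met in every library and are named after their values were seen.

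Over all words of 7 bases, those with the largest excess at the summits over paired windows were A-rich. After AAAAAAA came AAAAAAC, at 34.1% of summits against 11.7% of paired windows (28.1%, 35.9% and 33.8% at the summits of replicates 1, 2 and 3, against 13.3%, 12.4% and 11.1%). GAAAAAA was at 32.3%, against 12.8%. The word with the largest deficit in percentage points against paired windows was AATTTGC, at 3.99%, against 7.89%. These words overlap one another and were ranked on the same summits, so their order was not tested.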
